A study of Gallus gallus with 16 samples.

Results

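Double-positive (DP) cells of the chick vagal neural crest, sorted at Hamburger-Hamilton stages HH18 and HH25, were compared with each other by RNA-seq. They made up 4 of the 16 libraries of the series, 2 at each stage, and were chosen by their columns in the deposited count table. Per the labels, DP cells carried the signal of both enhancer reporters, NC2 and E2, in embryos from wild-type chicken eggs. The other libraries, 2 in each group, came from E2 cells (E2 signal without NC2 signal) and from negative cells (neither signal) at HH10, HH18 and HH25. There was no DP group at HH10. The HH18 and HH25 embryos had been electroporated at HH8 or HH9, and the HH10 embryos at HH4. Vagal regions were dissected and dissociated, and cells were sorted by flow cytometry. The labels give no number of embryos or cells for a library.

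As background, the NC2 reporter is driven by a FOXD3 enhancer and the E2 reporter by a SOX10 enhancer. FOXD3 is a transcription factor that acts early in neural crest specification, and SOX10 is one that migrating crest cells and later the glial and pigment lineages use. Vagal crest cells leave the dorsal hindbrain, and their descendants include neurons and glia of the gut and cells of the cardiac outflow tract. Electroporation reaches a portion of the cells only, and a construct is diluted as cells divide. Negative cells can therefore include crest cells as well as other tissue of the vagal region. The question for DP cells is which genes change as a cell population with activity of both enhancers develops from HH18 to HH25.

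The count table pairs no gene with a name, and 0 of its Ensembl identifiers were found among the 25635 chicken genes of the reference table used. FOXD3, SOX10, crest markers and markers of other cell types could therefore not be looked up, and the label DP was not checked against its markers. Genes are described by identifier, position on galGal5, length and level in the other populations. In such bulk samples, fewer cells of a type and less RNA per cell cannot be told apart.

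Total counts were 10838093 and 19164931 in HH18 DP libraries 1 and 2, and 12634040 and 37459288 in HH25 DP libraries 2 and 3, numbered as in the columns. All libraries ranged from 4032540 to 45313160. After thinning each library to 4032540 counts, 12186 and 12963 genes were detected in HH18 DP and 13241 and 13793 in HH25 DP cells. The 3 libraries numbered 3 (HH10 negative, HH10 E2 and HH25 DP) were the deepest of the 16. In them the 100 most counted genes took 10.9%, 10.9% and 10.2% of counts, against 13.9% to 20.6% in the other libraries. The labels do not say what a number stands for. The HH25 DP libraries correlated at 0.929 across genes in log2 counts per 1e+06 counts (CPM), and genes are not independent replicates. HH18 DP library 2 correlated less with HH18 DP library 1 (0.881) than with the HH18 negative (0.907 and 0.893) and HH18 E2 libraries (0.895 and 0.898). HH18 DP library 1 correlated at 0.870 and 0.858 with the HH18 negative libraries and at 0.845 and 0.869 with the HH18 E2 libraries.

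Between HH18 and HH25, 139 of 14676 tested genes changed in DP cells (0.947% of those tested). Of these, 56 rose (0.382%) and 83 fell (0.566%). Genes were called at an adjusted p below 0.05 in edgeR's quasi-likelihood test with Benjamini-Hochberg adjustment. At an unadjusted p below 0.05 there were 2581 genes. Among the 56, the log2 fold change had a median of 3.31, and the smallest was 1.30. Among the 83, the median was -4.11, and the smallest decrease was 1.16 on the log2 scale. Over all tested genes the median was 0.16 with TMM scaling, 0.09 with DESeq2 size factors and -0.0045 without HH25 DP library 3. A total of 8 genes that rose had no count in either HH18 DP library, and 11 that fell had none in either HH25 DP library. Over all 14676 tested genes, 1094 had no count in either HH18 DP library and 594 had none in either HH25 DP library. Without HH18 DP libraries 1 and 2 and HH25 DP libraries 2 and 3 in turn, the 8 became 1, 1, 2 and 3 and the 11 became 5, 7, 2 and 1. With DESeq2 they were 122 and 65. With these genes set at the bound that 3 counts over the group allow, the medians were 3.31 and -4.10.

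**Figure D1:**
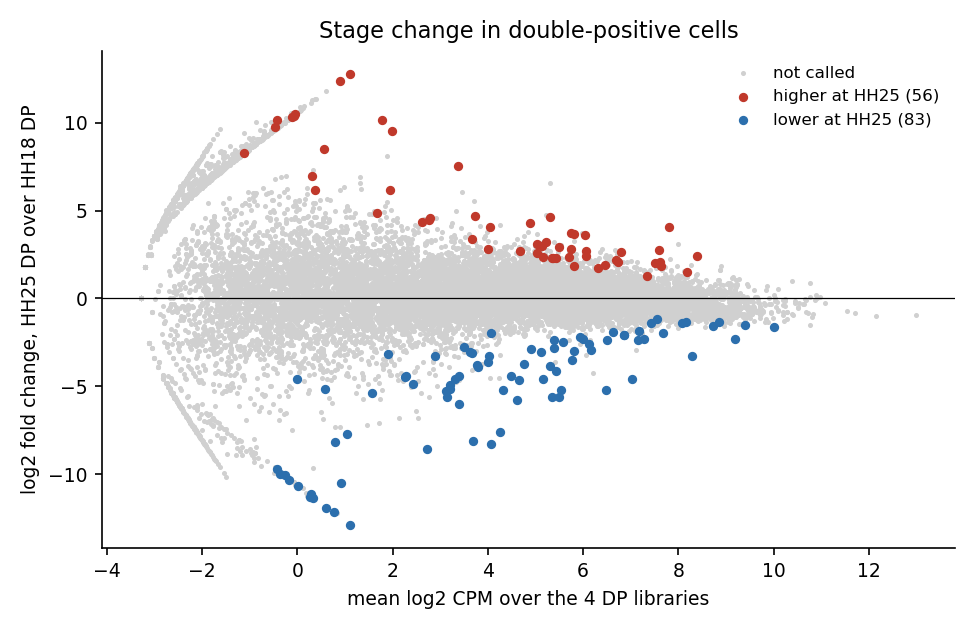
Log2 fold change from HH18 to HH25 in DP cells (vertical axis) against the mean log2 CPM of the 4 DP libraries (horizontal axis), 1 point per tested gene. The 56 genes that rose and the 83 that fell are coloured, and the curved edges at left are genes with no count at 1 of the stages.

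The number of calls depended on single libraries. It was 61 without HH18 DP library 1, 30 without HH25 DP library 2 and 25 without HH25 DP library 3, of which 56, 28 and 23 were among the 139. With DESeq2 it was 1233, including all 139. A term for the 3 libraries numbered 3 left 110 calls, 89 of them among the 139. Nothing in the labels says that a group's libraries came from different embryos. The p-values therefore reflect only the spread between libraries, which may be technical.

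The levels of both lists were close between libraries of a stage. The median of the 56 genes that rose was 8.84 and 13.2 CPM in the HH18 DP libraries and 106 and 99.8 CPM in the HH25 DP libraries. The median of the 83 genes that fell went from 88.6 and 106 CPM to 4.93 and 4.91 CPM. Summed over the list, the 83 genes took 17506 and 17366 CPM at HH18 and 3890 and 2960 CPM at HH25. The 56 genes summed to 1404 and 1520 CPM at HH18 and 8391 and 8919 CPM at HH25. These DP values describe how the lists were chosen and are no test. The levels in E2 and negative cells come from other libraries and are not part of the DP contrast. These libraries were in the same fit, however, and so had a part in each gene's spread and in which genes were called. With only the DP libraries fitted, 140 genes were called, and 70 of them were among the 139. Comparisons of E2 and negative cells over these lists are therefore not independent of the choice of genes.

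**Figure D2:**
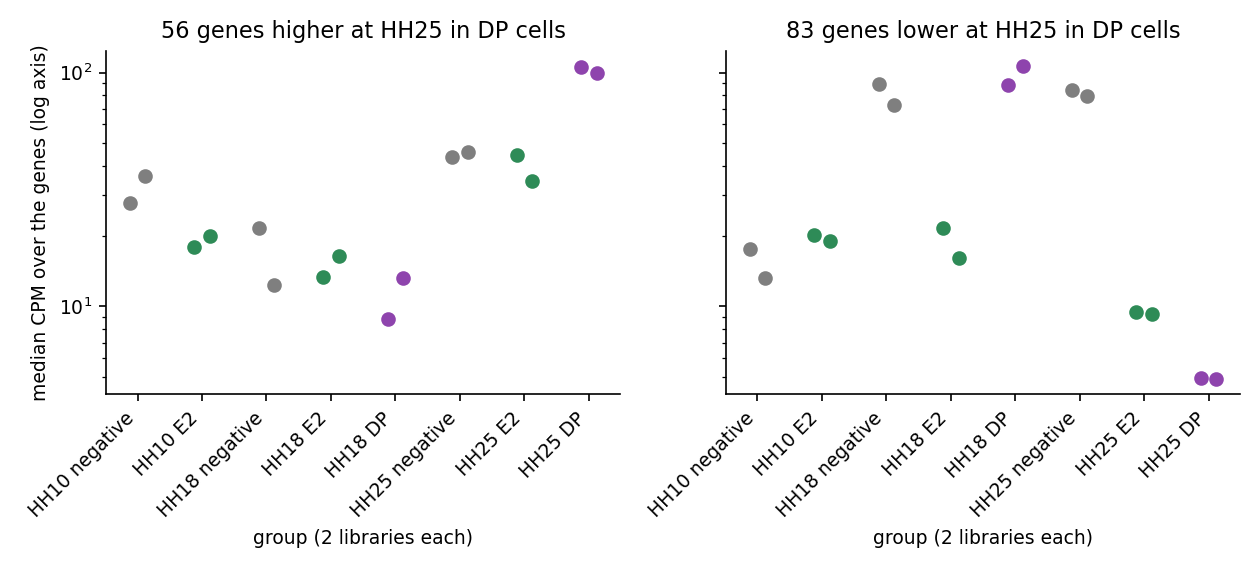
Median CPM (log axis) of the 56 genes that rose (left) and the 83 that fell (right) in DP cells, 1 point per library, in all 8 groups. The genes that fell stand at 72.6 to 106 CPM in HH18 negative, HH18 DP and HH25 negative cells, at 16.03 to 21.6 CPM in HH18 E2 cells and at 4.91 to 4.93 CPM in HH25 DP cells.

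Of the 83 genes that fell in DP cells by edgeR, 59 were higher in HH18 negative than in HH18 E2 cells without overlap. The median of the 83 was 89.6 and 72.6 CPM in HH18 negative libraries and 21.6 and 16.03 CPM in HH18 E2 libraries. At HH18, 30 of the 83 genes were called lower in E2 than in negative cells (36.1%, against 0.736% of all tested genes), and 0 were called higher (against 0.0545%). These 30 were 27.8% of the 108 genes with that call. The 59 made up 71.1% of the 83, against 23.7% of all tested genes with both negative libraries above both E2 libraries at HH18. The 30 became 16 and 17 without HH18 negative libraries 1 and 2, and 10 and 9 without HH18 E2 libraries 1 and 2. Of the 14 genes that fell without HH25 DP library 3, 11 had the negative libraries above the E2 libraries, and of the 44 that fell without HH18 DP library 1, 30 did. With DESeq2 the shares were lower: of 616 genes that fell, 257 had the negative libraries above the E2 libraries (41.7%), and 46 were among those called lower in E2 cells (7.47%).

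The median of the 30 genes was 125 and 137 CPM in HH18 DP cells, 111 and 108 CPM in HH18 negative cells and 5.85 and 3.44 CPM in HH18 E2 cells. At HH25 it was 3.79 and 2.92 CPM in DP cells, 112 and 126 CPM in negative cells and 3.91 and 2.46 CPM in E2 cells. The choice of the 30 sets which stage is high in DP cells and which population is high at HH18. Both calls need large folds, so the choice also favours low levels in HH25 DP and HH18 E2 cells and high ones in HH18 DP and HH18 negative cells. How near these levels are is therefore a description and no test. The median in HH25 DP libraries was near that in E2 cells, and the median in HH18 DP libraries near that in negative cells. The median log2 fold change from HH18 to HH25 over the 30 genes was -5.18 in DP (-5.19 with genes without counts at their bound), -0.000731 in E2 and 0.31 in negative cells. In HH10 libraries the median of the 30 was at most 0.888 CPM. Of all 83 genes, 41 rose from HH10 to HH18 in negative cells (49.4%, against 1.96% of all tested genes). Whether negative cells in the HH18 DP sort, or cells of any other type, had a part in this was not tested, since no marker could be named.

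Some of the genes that fell had the opposite order at HH18, at a share near that of all tested genes. For 18 of the 83 genes both E2 libraries lay above both negative libraries (21.7%, against 24.0% of all tested genes). Their median was 84.1 and 87.2 CPM in HH18 E2 cells and 54.6 and 33.1 CPM in HH18 negative cells, and it was 42.2 and 30.1 CPM in HH18 DP cells. At HH25 it was 13.9 and 15.0 CPM in E2 cells and 2.74 and 1.62 CPM in DP cells. The E2 libraries had been at 80.0 and 54.4 CPM at HH10. These 18 were picked for high HH18 E2 levels, so their lower E2 levels at HH25 are a description and support no change in E2 cells. The other 6 of the 83 genes had overlapping E2 and negative libraries at HH18.

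In negative cells the calls among the 83 genes were near the background. From HH18 to HH25, 6 of the 83 fell in E2 cells (7.23%, against 0.157% of all tested genes) and 0 rose. In all, 63 genes changed in E2 cells (0.429%). These 6 were 26.1% of the 23 genes that fell in E2 cells. In negative cells 9 fell (10.8%) and 7 rose (8.43%), against 9.46% and 5.32% of all tested genes. The median log2 fold change of the 83 was -0.21 in E2 and 0.11 in negative cells, and over all tested genes it was -0.02 and -0.04. At HH25, 34 of the 83 were lower in E2 than in negative cells (41%, against 1.04%) and 2 were higher (2.41%, against 1.84%).

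The 56 genes that rose in DP cells mostly had higher levels at HH25 in E2 and negative cells as well. The fold change from HH18 to HH25 was above 0 in 45 of the 56 genes in E2 cells and in 41 in negative cells. The medians were 1.54 and 1.52 on the log2 scale. They are not set against the DP median, which the choice of genes raises. Over all tested genes 47.8% and 47.4% were above 0. In E2 cells 9 of the 56 rose (16.1%, against 0.273% of all tested genes) and 0 fell, and these 9 were 22.5% of the 40 genes that rose in E2 cells. Of the 11 genes that rose in DP cells without HH25 DP library 3, 10 had a fold change above 0 in E2 cells, and of the 17 without HH18 DP library 1, 15 did. With DESeq2, 348 of 617 genes that rose did (56.4%), against the 47.8% of all tested genes. In negative cells 20 rose (35.7%, against 5.32%) and 5 fell (8.93%, against 9.46%).

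In 38 of the 56 genes that rose, both HH25 E2 libraries lay above both HH18 E2 libraries (67.9%, against 22.3% of all tested genes). The median of these 38 was 7.66 and 10.4 CPM in HH18 DP and 11.6 and 10.5 CPM in HH18 E2 cells. At HH25 it reached 109 and 95.6 CPM in DP, 65.5 and 54.1 CPM in E2 and 51.5 and 67.2 CPM in negative cells. These 38 were chosen for a rise in DP cells and for that separation in E2 cells. Their DP and E2 levels are therefore a description and no test. The other 18 genes were chosen for a rise in DP cells and for no such separation in E2 cells, so their levels are a description. Their median was 86.3 and 105 CPM in HH25 DP cells, 15.4 and 14.4 CPM in HH18 DP, 18.9 and 16.3 CPM in HH25 E2 and 22.5 and 18.4 CPM in HH25 negative cells. It was 49.7 and 61.7 CPM in HH10 negative and 32.9 and 47.2 CPM in HH10 E2 cells.

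**Figure D3:**
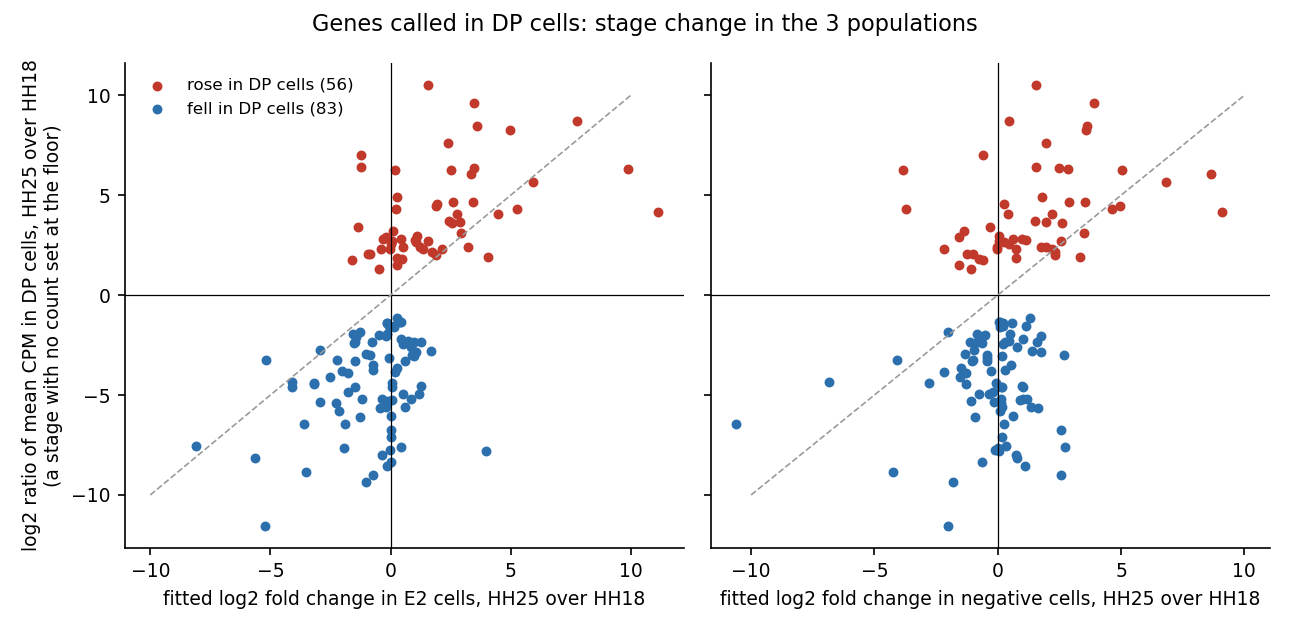
Stage change of the 139 called genes in DP cells (vertical axis, log2 ratio of mean CPM, with a stage without counts set at 3 counts over the group) against the fitted log2 fold change in E2 cells (left) and negative cells (right). Dashed lines mark equal change. Of the 56 genes that rose, 45 lie right of 0 in E2 cells and 41 in negative cells, and the 83 that fell spread to both sides of 0 in negative cells.

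Some of the genes that rose in DP cells had been high at HH10. Both HH10 negative libraries lay above both HH18 negative libraries for 29 of the 56 (51.8%, against 30.1% of all tested genes). From HH10 to HH18, 9 of the 56 fell in E2 cells (16.1%, against 1.04%) and 15 rose (26.8%, against 3.8%). In negative cells 7 fell (12.5%, against 0.477%) and 3 rose (5.36%, against 1.96%). Both directions were above the shares of all tested genes. All these calls come from 1 fit with a shared spread per gene, so genes called in DP cells can pass more easily here too. These shares are a description. The 9 genes that fell in E2 cells had a median of 50.4 and 58.4 CPM in HH10 E2, 0.54 and 1.87 CPM in HH18 E2 and 15.0 and 13.9 CPM in HH25 E2 cells. In DP cells their median was 0.541 and 0.878 CPM at HH18 and 38.4 and 48.1 CPM at HH25. The choice of these 9 favours low HH18 levels in E2 and DP cells. Their higher levels at HH10 and HH25 are therefore a description and no test. Electroporation time differed between HH10 and the later stages, so stage and electroporation time cannot be told apart in the comparisons with HH10. The libraries numbered 3 were in both HH10 groups and in HH25 DP cells, and in no HH18 group. Their part in the comparisons with HH10 was not tested.

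The gene with the highest fitted log2 fold change among those that rose, ENSGALG00000041918, lies on chromosome 2 (115888641 to 115975593, minus strand, 11 exon intervals). This rank rests on the absence of counts at HH18, where a fitted value gives no measured size. With genes without counts at their bound, other called genes had larger changes, up to 10.5 and down to -11.5 on the log2 scale. ENSGALG00000041918 had no count in either HH18 DP library and 41.8 and 48.3 CPM in the HH25 DP libraries. The HH18 E2 libraries were at 0 and 0.455 CPM and the HH25 E2 libraries at 54.3 and 45.5 CPM. All 4 HH10 libraries were at or below 0.616 CPM, and negative cells had 3.42 and 4.21 CPM at HH18 and 1.05 and 9.42 CPM at HH25. The gene was thus near 0 in crest-reporter cells at HH18 and at about the same level in DP and E2 cells at HH25. The rise was at least 414-fold in DP cells (edgeR adjusted p = 0.0419). In E2 cells the pooled ratio was 233 (95% counting interval 122 to 510), which did not pass the test (edgeR adjusted p = 0.118). The call in DP cells ended without any 1 of the 4 DP libraries, and with the term for libraries numbered 3.

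The second, ENSGALG00000026790, lies on chromosome Z (26043375 to 26046985, plus strand, 4 exon intervals). It had no count in the HH18 DP libraries and 35.7 and 31.5 CPM in the HH25 DP libraries. It had been at 53.2 and 62.7 CPM in HH10 negative and 20.03 and 10.7 CPM in HH10 E2 cells, and was at or below 1.92 CPM in every HH18 library. At HH25 the negative libraries had 16.5 and 11.9 CPM and the E2 libraries 12.9 and 4.45 CPM. E2 and negative cells were therefore lower at HH18 than at HH10 or HH25. The rise in DP cells was at least 309-fold (edgeR adjusted p = 0.00269), and this call remained under all 11 alternatives. The pooled ratio in negative cells was 10.9 (6.52 to 19.6, edgeR adjusted p = 0.0266).

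Among the genes that fell, ENSGALG00000001571, a gene of 28 exon intervals on the minus strand of chromosome 28 (1741275 to 1754399), had 71.0 and 27.7 CPM in HH18 DP cells and no count in HH25 DP cells. HH18 negative cells had 65.0 and 50.5 CPM, and HH25 negative cells 4.33 and 28.4 CPM. The E2 libraries were at or below 0.607 CPM, and all HH10 libraries had no count. The fall in DP cells was at least 644-fold (edgeR adjusted p = 0.0284). The call ended without HH18 DP library 1 or either HH25 DP library, and with the term for libraries numbered 3.

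ENSGALG00000026781, a gene of 5 exon intervals on the minus strand of chromosome 1 (175088272 to 175096275), had 32.5 and 24.96 CPM in HH18 DP and no count in HH25 DP cells. HH18 and HH25 negative cells had 16.3 and 18.8 CPM and 43.7 and 31.1 CPM. The E2 libraries were at or below 0.63 CPM, and all HH10 libraries had no count. The fall in DP cells was at least 375-fold (edgeR adjusted p = 0.0341). It was lost without any 1 of the 4 DP libraries, and with the term for libraries numbered 3. In both genes that fell, every HH18 DP and HH18 negative library was above every E2 library.

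**Figure D4:**
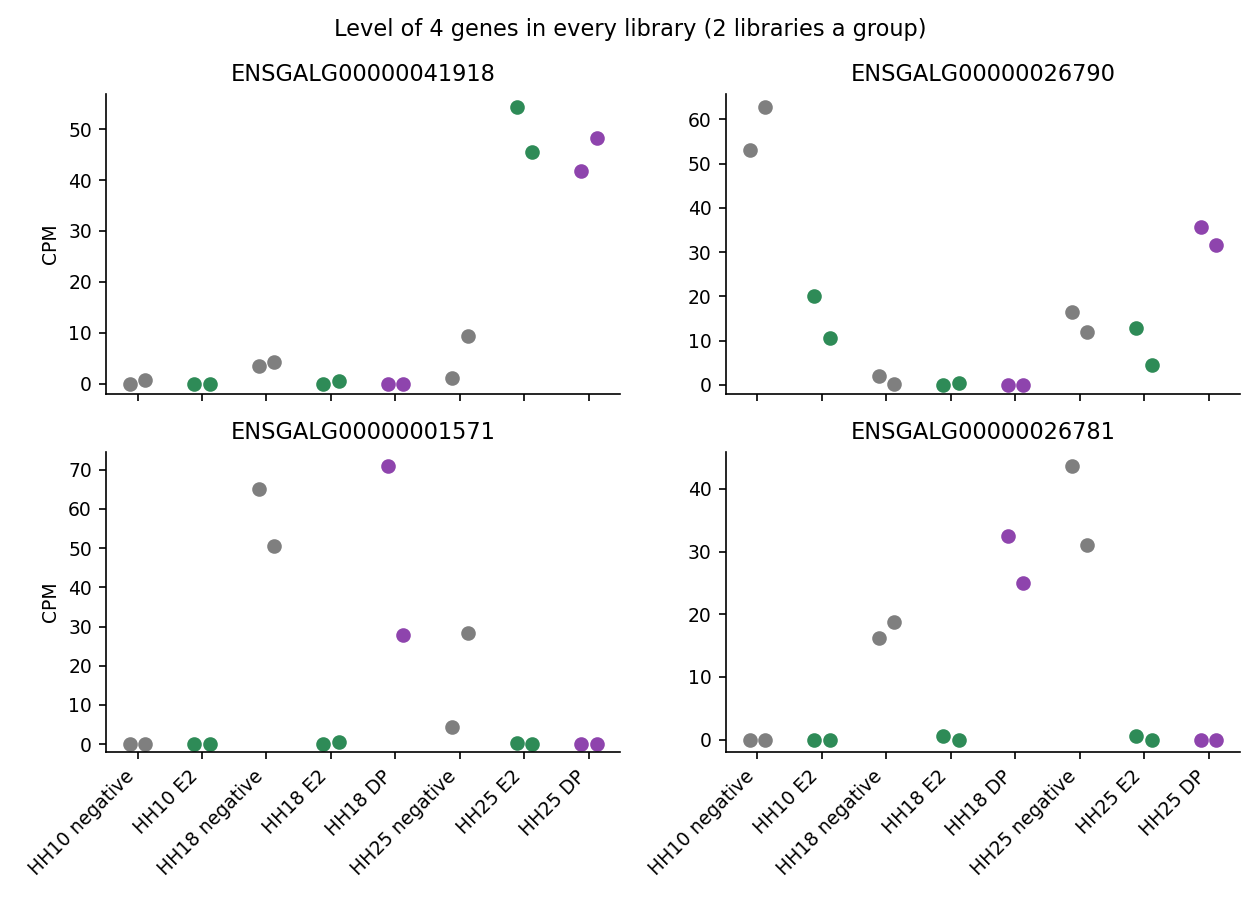
CPM of the named called genes with the most positive (upper 2) and most negative (lower 2) fitted log2 fold changes, 1 point per library in all 8 groups. The upper genes have no count in HH18 DP cells and 31.5 to 48.3 CPM in HH25 DP cells, and the lower genes have no count in HH25 DP cells.

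Among the edgeR calls, 1 run of 3 neighbouring tested genes fell together, on chromosome 21 (6083120 to 6090874, minus strand), and there were 0 runs of 3 or more among the genes that rose. With DESeq2 there were 3 and 4 such runs. The summed level of the 3 genes of the edgeR run on chromosome 21 was 767 and 779 CPM in HH18 DP and 3.99 and 2.36 CPM in HH25 DP cells. In negative cells it was 471 and 406 CPM at HH18 and 627 and 666 CPM at HH25. E2 cells had 27.9 and 15.0 CPM at HH18 and 8.68 and 1.99 CPM at HH25, and the HH10 libraries had no count. The 3 genes were not called as a run without HH25 DP library 2 or HH25 DP library 3. Neighbouring near-copies can share reads, so their counts may not be independent.

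The genes that rose spanned more of the genome than the genes that fell. The median genomic span, from the first to the last exon base, was 27674.5 bases for the 56, 4614 bases for the 83 and 11777.5 bases for all tested genes. For the genes that rose it was 95353 bases without HH18 DP library 1 and 57302.5 bases without HH25 DP library 2, and for those that fell it was 3583.5 and 3890 bases. The interquartile range was 11289.5 to 99170.75 bases for the genes that rose and 2592 to 9233 bases for those that fell. Their median numbers of exon intervals were 9 and 7, against 8 over all tested genes. Their median summed exon lengths were 2873.5 and 1457 bases, against 1872. All tested genes were ranked by span and divided into 4 groups of 3669. In the group with the shortest spans (up to 4328 bases), 4 genes rose and 40 fell, 0.109% and 1.09% of the group. In the group with the longest spans (from 30726 bases), 25 rose and 6 fell (0.681% and 0.164%). On chromosomes 1 to 5 lay 35 of the 56 genes that rose (62.5%) and 26 of the 83 that fell (31.3%), against 44.7% of tested genes. On chromosomes 11 to 33 lay 9 of the 56 (16.1%) and 48 of the 83 (57.8%), against 34.1%.

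The same order held over all tested genes in DP cells. From the shortest to the longest group the median log2 fold change was -0.28, -0.02, 0.32 and 0.59. In E2 cells the medians were 0.17, -0.03, -0.21 and -0.04, and in negative cells 0.73, -0.13, -0.53 and -0.18. The library numbered 3 moved with this order. In the longest group the median deviation from each gene's mean over all libraries, on the log2 CPM scale, was 0.86 in HH25 DP library 3 and 0.30 in HH25 DP library 2. It was 0.11 in HH18 DP library 1 and -0.24 in HH18 DP library 2. The other libraries numbered 3 had 0.56 (HH10 negative) and 0.33 (HH10 E2), against 0.07 and -0.40 in library 1 of those groups. Without HH25 DP library 3, the 11 genes called higher had a median span of 37921 bases and the 14 called lower one of 3085 bases. With genes grouped by summed exon length instead, the medians in DP cells were -0.12, 0, 0.16 and 0.61 from shortest to longest. The deviation of HH25 DP library 3 in the group with the longest exon length was 0.87. Span and exon length were not told apart. The part that depth or library preparation had in this was not tested.

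**Figure D5:**
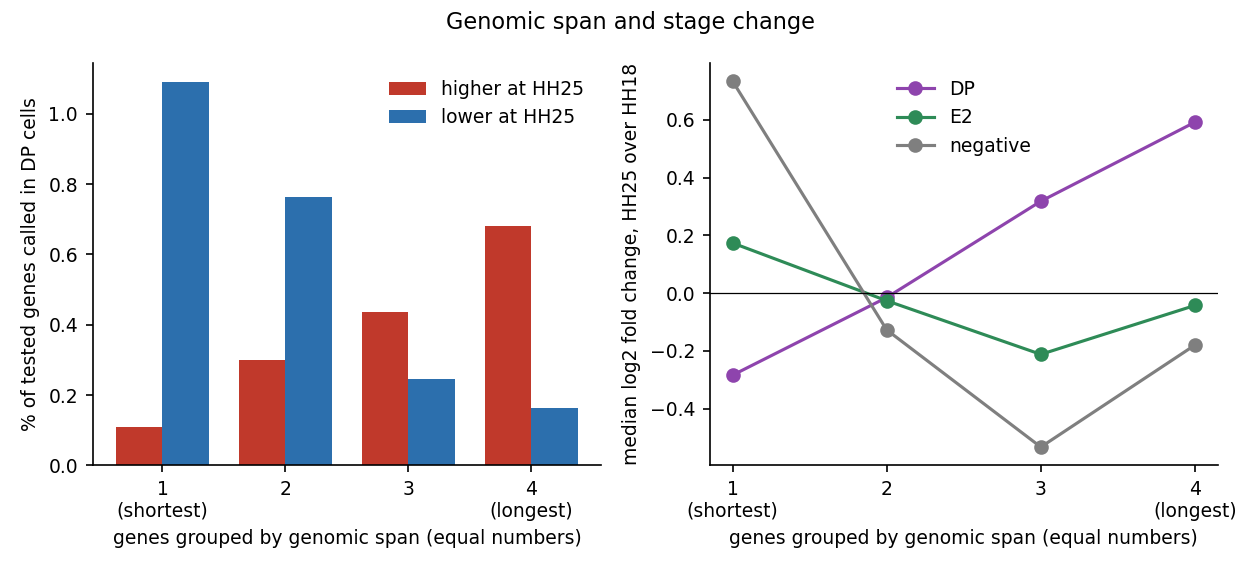
Left, percent of tested genes called higher or lower at HH25 in DP cells, in 4 groups of genes of increasing genomic span. Right, median log2 fold change from HH18 to HH25 over all tested genes of each group, for DP, E2 and negative cells, rising from -0.28 to 0.59 in DP cells.

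Chromosome W is found only in female birds. Its counts were lower in HH25 DP cells than in any other group. They amounted to 37.3 and 75.2 CPM there, against 313 and 306 CPM in HH18 DP cells, without TMM scaling. Of 23 tested W genes, 20 had a fold change below 0 from HH18 to HH25 and 1 above 0. Of the 23, 1 was called lower (4.35%, against 0.566% of all tested genes). The median log2 fold change of the 23 was -2.66 in DP, -0.49 in E2 and -0.26 in negative cells. Chromosome Z took 4.07% and 4.41% of counts in HH18 DP and 4.94% and 5.27% in HH25 DP cells. Of 728 tested Z genes 3 rose (0.412%, against 0.382% of all tested genes) and 1 fell (0.137%, against 0.566%). The median log2 fold change of the Z genes was 0.46, against 0.16 over all tested genes. The labels do not give the sex of the embryos, and its part in these values was not tested.

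The change with stage differed between DP and E2 cells in 27 genes (0.184% of those tested), tested as a difference of the 2 contrasts. At an unadjusted p below 0.05 there were 2342. Of the 27, 7 had a more positive change in DP cells (0.0477%) and 20 a more negative one (0.136%). The split was 25 and 16 without HH25 E2 library 1, 7 and 7 without HH18 E2 library 1, and 379 and 390 with DESeq2. The median difference over all tested genes was 0.23 on the log2 scale, and -0.06 without HH25 DP library 3. The count was 1 without HH25 DP library 3, 6 without HH25 DP library 2 and 16 without HH18 DP library 2. It was 14 and 1 without HH18 E2 libraries 1 and 2, 41 and 14 without HH25 E2 libraries 1 and 2, and 769 with DESeq2.

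ENSGALG00000006202, a gene of 13 exon intervals on the minus strand of chromosome 14 (7001817 to 7013562), had no count in HH18 DP and 11.7 and 6.72 CPM in HH25 DP cells. E2 cells had 6.79 and 4.80 CPM at HH18 and 2.60 and 2.37 CPM at HH25. It rose at least 84.5-fold in DP cells, and the pooled ratio of HH18 over HH25 in E2 cells was 2.36 (1.74 to 3.24). The difference had an edgeR adjusted p of 0.0306.

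ENSGALG00000004270, a gene of 14 exon intervals on the plus strand of chromosome 10 (7045146 to 7260351), had 0.541 and 0.878 CPM in HH18 DP and 106 and 168 CPM in HH25 DP cells. E2 cells had 2.34 and 8.19 CPM at HH18 and 34.7 and 20.8 CPM at HH25. At HH10 the gene had 450 and 577 CPM in negative and 81.8 and 120 CPM in E2 cells, so that HH18 was the lowest stage in both populations. The pooled ratio of HH25 over HH18 was 204 (135 to 326) in DP and 5.44 (4.64 to 6.39) in E2 cells. The fitted log2 fold change in DP cells was 7.54 (SE 0.82, edgeR adjusted p = 7.2e-04), and the difference from E2 cells was 5.14 (SE 0.94, edgeR adjusted p = 0.0495). The calls of a more positive change in DP than in E2 cells in these 2 genes rested on every DP and HH25 E2 library and on HH18 E2 library 2. Both ended without any 1 of these, without the HH10 libraries and with only the libraries compared. That of ENSGALG00000006202 also ended without HH18 E2 library 1, and that of ENSGALG00000004270 with the term for libraries numbered 3.

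ENSGALG00000002118 on chromosome 13 (3783482 to 3790486, plus strand, 4 exon intervals) rose in E2 and negative cells but did not change detectably in DP cells. DP cells had 8.48 and 12.7 CPM at HH18 and 14.1 and 12.1 CPM at HH25. E2 cells had no count at HH18 and 15.8 and 9.94 CPM at HH25, a rise of at least 180-fold (edgeR adjusted p = 0.00678). Negative cells had 6.16 and 6.45 CPM at HH18 and 56.7 and 24.0 CPM at HH25 (edgeR adjusted p = 0.0432). The pooled ratio of HH25 over HH18 in DP cells was 1.13 (0.986 to 1.29), an interval that leaves out the spread between libraries. The fitted log2 fold change in DP cells was 0.30 (SE 0.74, edgeR adjusted p = 0.891). A change in DP cells was thus neither shown nor excluded. The difference between DP and E2 cells had an edgeR adjusted p of 0.0226, and the call ended without either HH18 E2 library or either HH25 DP library.

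ENSGALG00000040582, a gene of 8 exon intervals on the plus strand of chromosome 17 (10543138 to 10636808), had 4.42 and 6.25 CPM in HH18 DP and no count in HH25 DP cells, at least 69.7-fold lower. E2 cells had 31.8 and 24.1 CPM at HH18 and 10.3 and 12.9 CPM at HH25. The difference had an edgeR adjusted p of 0.0306, and the call ended without either HH25 DP library, either HH18 E2 library, HH18 DP library 2 or HH25 E2 library 2, and with only the libraries compared.

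The change with stage differed between DP and negative cells in 2124 genes (14.5% of those tested), 1273 more positive (8.67%) and 851 more negative (5.8%) in DP cells. Within negative cells alone, 2170 genes changed from HH18 to HH25 (14.8%). The median difference over all tested genes was 0.36 on the log2 scale with TMM scaling and 0.20 with DESeq2 size factors. The count was 570 without HH25 DP library 3 and 1102 without HH18 DP library 2. It was 699 and 794 without HH18 negative libraries 1 and 2, and 1078 without HH25 negative library 1.

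ENSGALG00000015115 on chromosome Z (34882178 to 34946535, plus strand, 13 exon intervals) had opposite changes in level in these populations, and neither was called alone. It had no count in HH18 DP and 14.7 and 18.2 CPM in HH25 DP cells, whereas negative cells had 1.92 and 5.89 CPM at HH18 and no count at HH25. The HH25 DP level was at least 151-fold above the HH18 level, which alone did not pass the test (edgeR adjusted p = 0.0942). The fall in negative cells, from 14 and 21 counts, did not pass either (edgeR adjusted p = 0.0516). The difference between the changes did (edgeR adjusted p = 0.0106). In ENSGALG00000027960 on chromosome 1 (121714896 to 121737453, minus strand, 3 exon intervals), HH18 DP cells had no count and HH25 DP cells had 12.2 and 1.53 CPM. Negative cells had 4.24 and 1.402 CPM at HH18 and no count at HH25, and the difference had an edgeR adjusted p of 0.0257. Neither change passed alone (edgeR adjusted p = 0.176 in DP and 0.106 in negative cells). E2 cells had 0 and 2.17 CPM at HH18 and 5.11 and 11.3 CPM at HH25. The difference between DP and E2 cells did not pass (edgeR adjusted p = 0.394). The call against negative cells ended without either HH18 DP or either HH25 DP library, either HH18 negative library or HH25 negative library 1.

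ENSGALG00000023622, a gene of 4 exon intervals on the plus strand of chromosome Z (9164721 to 9165903), had 4.69 and 11.8 CPM in HH18 DP and no count in HH25 DP cells, at least 108-fold lower (edgeR adjusted p = 0.00857). Negative cells had 15.5 and 6.45 CPM at HH18 and 79.6 and 49.7 CPM at HH25. The E2 libraries of both stages were at or below 0.284 CPM. The difference between DP and negative cells had an edgeR adjusted p of 0.0035 and passed under all 15 alternatives. For ENSGALG00000026781, whose levels are given above, the difference had an edgeR adjusted p of 0.0107. That call ended without either HH18 negative library or HH25 DP library 3.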

How the data were processed

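The authors deposited raw read counts of 16 libraries, not normalized. The submitters' processing notes name the build galGal5 and the tools STAR 2.4.2a, Subread 1.4.5, featureCounts and DESeq2. How strand and multiply matching reads were handled is not given in the sources used, so overlapping, antisense or near-identical genes may share reads. Per the labels' protocols, RNA with a RIN above 6 was made into cDNA with SMART-Seq v4 and sequenced as 40 bp read pairs.

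Of 24881 genes, 7511 had no count and 14676 passed edgeR's filterByExpr. edgeR 4.0.16 in R 4.3.3 (TMM scaling, quasi-likelihood test, Benjamini-Hochberg adjustment, call below 0.05) was run once on all 16 libraries, with 8 groups and 8 residual degrees of freedom. DESeq2 1.42.0 was an alternative. CPM values are per 1e+06 counts, scaled by TMM. A fold against a group without counts is a lower bound against 3 counts over the group. Ratios of groups that both had counts come from counts pooled over libraries, with 95% exact intervals. Intervals and bounds thus leave out the spread between libraries. Reads carry no molecular identifiers, so the intervals take each read as a separate molecule and may be too narrow even for counting error. The chi-square per gene between libraries of a group was 27.4 to 205, more than sampling noise, so all were used as separate libraries. Tests were checked on simulated counts with known changes of 2-, 4-, 16- and 64-fold, 50 genes each. The simulation used edgeR's own count model, a single mean per gene over the 8 groups and changes in HH25 DP cells only. It held no effect of the libraries numbered 3, so its rates need not hold in the real data. For DP cells 0, 6, 24 and 35 of the 50 were called in the right direction. For the difference from E2 cells it was 0, 1, 21 and 27, and for that from negative cells 0, 0, 18 and 28. Unchanged genes gave 2, 2 and 3 calls. Most changes of 4-fold or less were thus missed, and the counts of called genes do not measure how many genes change.

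In each comparison the text names the 2 called genes at either end of the fitted log2 fold changes. They were taken among those with at least 5 CPM on average in the higher group and, for DP cells alone, no overlap between stages. An absence of counts in a group moves a gene toward either end of this ranking. The planned rule asked for gene symbols, and the planned gene and marker lists were not looked up, since no identifier has a name. Groups within the called genes were formed after the values were seen. The series text and column names give HH12 where the sample records give HH10. The HH10 and HH25 DP columns were matched to groups only. The comparisons and lists were chosen with earlier results of these data known.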

Additional observations from a re-analysis of the deposited data

Results flagged for a closer look

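A difference in stage change between DP cells and another population, tested as an interaction in edgeR, flagged the following results. Against E2 cells, 27 genes passed, and against negative cells 2124.

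Among the 4 genes named for DP cells, the edgeR adjusted p of the difference from negative cells was 0.0203 for ENSGALG00000041918, 0.0128 for ENSGALG00000026790, 0.0205 for ENSGALG00000001571 and 0.0107 for ENSGALG00000026781. None of these 4 passed against E2 cells in edgeR, where the adjusted p was 0.469, 0.140, 0.140 and 0.120 and the unadjusted p was below 0.05 for the last 3.

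For ENSGALG00000006202 the edgeR adjusted p was 0.0306 against E2 and 0.0124 against negative cells. For ENSGALG00000004270 it was 0.0495 and 0.00545, and for ENSGALG00000040582 it was 0.0306 and 0.00485. ENSGALG00000002118 passed against E2 cells (0.0226) and not against negative cells (0.158). Against negative cells the edgeR adjusted p was 0.0106 for ENSGALG00000015115, 0.0257 for ENSGALG00000027960 and 0.0035 for ENSGALG00000023622.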

How the results depend on the processing

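The count of genes changed in DP cells (139) was 251 without the filter, 245 without the HH10 libraries (a choice made after seeing the data, as was the term for libraries numbered 3) and 1233 with DESeq2. It was 137 with DESeq2 size factors, 193 with the stricter filter and 140 with only the 4 DP libraries (70 shared), and ranged from 25 to 103 with 1 DP library left out. The difference from E2 cells (27) was 98 without the filter, 12 with only the libraries compared and 769 with DESeq2, and ranged from 1 to 41 with 1 library left out. The difference from negative cells (2124) was 3498 with DESeq2 and ranged from 570 to 2776. The stage change in E2 cells (63 genes) was 112 without the filter, 146 with only the libraries compared, 540 with DESeq2 and 0 to 75 with 1 library left out. The 0 was without HH18 E2 library 2, where 771 genes had an unadjusted p below 0.05. In negative cells (2170) it was 1322 with only the libraries compared, 3663 with DESeq2 and 664 to 2396 with 1 library left out. A lone library was assumed to vary like the other groups.

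No pairing of DP libraries across stages was possible because the DP columns carry numbers 1 and 2 at HH18 and 2 and 3 at HH25. The labels do not say whether same-numbered libraries of a stage came from the same tissue. A pairing of populations within a stage was not tested, also in the differences of stage changes. With the replicate number as a block, the stage change was called in 26 genes in E2 and 2013 in negative cells. Deviations of same-numbered libraries correlated at -0.134 in E2 and -0.0109 in negative cells. No named gene changed direction under any alternative run. The split of higher and lower calls in E2 cells went from 40 and 23 to 25 and 50 without HH25 E2 library 1. The cause of these moves was not tested.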
